A study of Mus musculus with 6 samples.

Results

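The genes described here encode the brakes of the cell cycle: 7 cyclin-dependent kinase (CDK) inhibitors, Cdkn1a, Cdkn1b, Cdkn1c, Cdkn2a, Cdkn2b, Cdkn2c and Cdkn2d, and the 3 retinoblastoma family members, or pocket proteins, Rb1, Rbl1 and Rbl2. They were chosen by name, and every probe set whose platform annotation gives exactly 1 gene symbol, that symbol being a member, was taken. All 10 genes were found, with 14 of the 22626 tested probe sets. Gene expression was measured on 6 Affymetrix arrays, 3 of Hsf4-null and 3 of wild-type lenses, all from newborn mice labelled as strain ICR, with 50 ng of total RNA amplified for each array. Hsf4 is a heat shock transcription factor of the lens, and the samples differ by label only in carrying the null genotype or the wild-type one. Which part of the gene the null allele lacks, and whether lenses of several mice were pooled for an array, were stated in neither the labels nor the methods.

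Lens growth depends on a border between dividing epithelial cells and fiber cells that leave the cell cycle for good before they elongate and lose their nuclei. The Cip/Kip inhibitors (p21, p27 and p57, encoded by Cdkn1a, Cdkn1b and Cdkn1c) bind complexes of cyclins with CDKs, and the INK4 inhibitors (p16, p15, p18 and p19, encoded by the Cdkn2 genes) bind Cdk4 and Cdk6. When these kinases are held back, the pocket proteins stay unphosphorylated and keep the E2F transcription factors from turning on genes for DNA synthesis. In the mouse lens, p27 and p57 are the inhibitors known for fiber cell cycle exit, and loss of Rb1 lets fiber cells enter the cycle again.

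The targeted transcript checked the labels: the Hsf4 probe set had log2 intensities of 4.26, 4.09 and 3.78 in Hsf4-null lenses, against 9.09, 9.39 and 9.56 in wild-type lenses. Across all probe sets, the correlation of log2 values was 0.991 to 0.994 within a group and 0.982 to 0.990 between groups, and the array medians lay between 5.22 and 5.38. Lens markers were bright, with Cryaa, an alpha-crystallin, at means of 14.02 in Hsf4-null and 14.03 in wild-type lenses. Among transcripts tied to sex, Hsf4-null replicate 3 stood apart, with Xist at 3.79 and Y-linked Eif2s3y at 3.20, each low there, while every other array had a high value for one of these transcripts. The deposited values are RMA intensities, which are corrected for background, brought to a common distribution and summarised over the probes of a probe set, and log2 was taken before any test. No detection calls were used, so a probe set is called dim here when its mean lies below 5.30, the median of all probe set means, and 9 of the 14 member probe sets lie above it.

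Of the 14 member probe sets, 1 passed the test for a change and was lower in Hsf4-null lenses, 0 were higher and 13 did not pass (limma, a linear model with a spread shared across probe sets, at a Benjamini-Hochberg adjusted p under 0.05). The same test called 2.66% of all tested probe sets, 1.94% lower and 0.72% higher, so 1 in 14 is a count close to the background. At an unadjusted p under 0.05 from limma, 4 of the 14 passed, against 15.4% of all probe sets. The groups did not overlap for 6 of the 14, against 21.1% of all probe sets, with 5 lower in Hsf4-null lenses, where the share over all probe sets was 11.7%, and 1 higher, where it was 9.37%. The median log2 fold change of the 14 was -0.18, beside 0.00 over all tested probe sets, with 9 below 0 and 5 above 0. Whole lenses were measured, so fewer cells of a type and less RNA per cell cannot be told apart. Several of these probe sets share a gene, so they are not independent of each other.

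**Figure D1:**
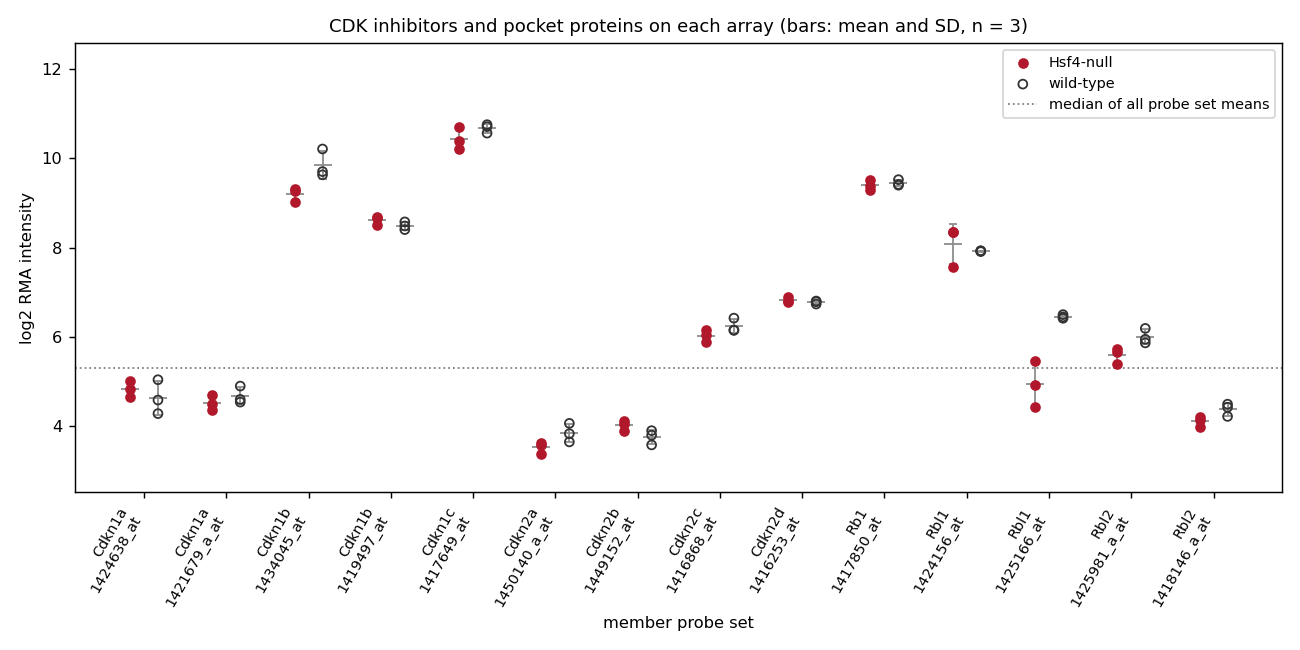
Log2 RMA intensity (vertical axis) of the 14 member probe sets on each of the 3 Hsf4-null (filled) and 3 wild-type (open) arrays, with bars at the mean and SD and a dotted line at 5.30, the median of all probe set means. Rbl1 by probe set 1425166_at is the clearest separation, with Hsf4-null arrays at 4.42 to 5.45 and wild-type arrays at 6.41 to 6.49.

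Rbl1 encodes p107, a pocket protein that binds mainly the repressor E2F factors and whose own gene is a known E2F target. It is the member with the called probe set, 1425166_at. On this probe set Hsf4-null lenses had log2 intensities of 5.45, 4.42 and 4.92, against 6.49, 6.41 and 6.44 in wild-type lenses. All 3 Hsf4-null arrays lay below all 3 wild-type arrays, and they were spread over 1.03 log2 units where the wild-type arrays were spread over 0.08. The means were 4.93 ± 0.52 (SD, n = 3) in Hsf4-null and 6.45 ± 0.04 (SD, n = 3) in wild-type lenses. Hsf4-null lenses were thus 2.86-fold lower (log2 fold change -1.52, standard error 0.23, 95% confidence interval -2.05 to -0.98, limma adjusted p = 0.0147). The Hsf4-null mean is below the median of all probe set means, so the size of the fold is uncertain. The call was lost without Hsf4-null replicate 3 (limma adjusted p = 0.0728), the array that stood apart in its sex-linked transcripts, and without wild-type replicate 2 (0.0611) or wild-type replicate 3 (0.0558), while the log2 fold change stayed between -1.78 and -1.26 over all alternatives, which had adjusted p from 0.00298 to 0.203.

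The brighter Rbl1 probe set, 1424156_at, did not show this decrease. It had log2 intensities of 8.34, 7.56 and 8.35 in Hsf4-null lenses, against 7.92, 7.93 and 7.91 in wild-type lenses. The groups overlapped, since Hsf4-null replicates 1 and 3 lay above the wild-type arrays and Hsf4-null replicate 2 below them. The log2 fold change was 0.16 (standard error 0.21, 95% confidence interval -0.31 to 0.64, limma adjusted p = 0.756). Hsf4-null replicate 2 was the lowest array on both Rbl1 probe sets, and the wild-type arrays were tight on both. That Hsf4-null array also had less signal of the retina marker Otx2, at 5.90 against 9.42 and 9.20 in Hsf4-null replicates 1 and 3. The wild-type arrays had 7.59, 8.90 and 6.34 for Otx2, and whether carried-over tissue bears on Rbl1 was not tested. With the median of both probe sets standing for the gene, Rbl1 had a log2 fold change of -0.68 (limma adjusted p = 0.16). The platform annotation ties the probe sets to different sequence records of Rbl1, and which transcripts each one detects was not tested.

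The gap between the probe sets of a gene within an array compares their changes, though not their levels. For Rbl1 the dimmer minus the brighter probe set was -2.89, -3.14 and -3.43 in Hsf4-null lenses, against -1.43, -1.52 and -1.47 in wild-type lenses. The groups did not overlap, and the gap differed by -1.68 log2 units (exact permutation test, two-sided p = 0.1, the smallest that 3 arrays against 3 can give). The difference ranged from -1.81 to -1.54 when an array was left out or the arrays were quantile normalized again. This comparison, for all 4 members with 2 probe sets, was chosen after the values had been seen.

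**Figure D2:**
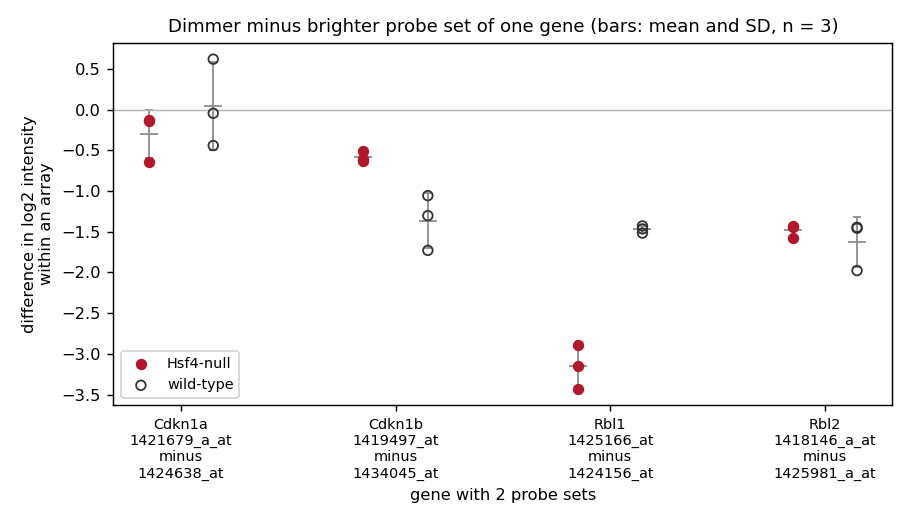
Difference in log2 intensity between the dimmer and the brighter probe set of the 4 members with 2 probe sets (vertical axis), on each Hsf4-null (filled) and wild-type (open) array, with bars at the mean and SD. The gap of Rbl1 is -3.43 to -2.89 in Hsf4-null and -1.52 to -1.43 in wild-type lenses, and that of Cdkn1b is -0.64 to -0.50 in Hsf4-null and -1.73 to -1.06 in wild-type lenses.

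The upstream stretches of Rbl1 and Cdkn1b are shown because these are the members whose probe sets differed most from each other and from 0. Both are the 250 bases before the annotated start, from RefSeq on build GRCm38.p6, which names positions only and was not used to make the array values. They were searched on both strands for the heat shock element, the site of heat shock factors, as GAANNTTC or TTCNNGAA, and for the E2F element as TTTCGCGC or TTTGGCGC. Matches are in capitals. The Rbl1 stretch is chr2:157204535-157204784 on the minus strand, and that of Cdkn1b is chr6:134920151-134920400 on the plus strand.
Rbl1: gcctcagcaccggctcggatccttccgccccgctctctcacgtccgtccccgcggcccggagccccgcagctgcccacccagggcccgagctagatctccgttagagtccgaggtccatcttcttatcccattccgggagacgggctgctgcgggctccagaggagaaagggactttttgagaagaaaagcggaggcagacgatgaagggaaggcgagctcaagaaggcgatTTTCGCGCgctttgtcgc
Cdkn1b: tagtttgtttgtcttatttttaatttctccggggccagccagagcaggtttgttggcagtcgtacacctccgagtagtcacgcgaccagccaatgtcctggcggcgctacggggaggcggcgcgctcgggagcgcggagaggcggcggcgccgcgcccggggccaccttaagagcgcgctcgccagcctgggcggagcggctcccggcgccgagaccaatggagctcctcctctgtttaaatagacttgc
The Rbl1 stretch holds 1 E2F element, starting 18 bases before the start site, and 0 heat shock elements, and that of Cdkn1b holds 0 of either. Of 32851 such stretches over all genes, 0.654% hold an E2F element and 12.8% a heat shock element in this spelling. Promoter entries matched 8 of the 10 members, with 11 start sites, and Rb1 and Cdkn1c were the members without an entry. Only 1 of those 11 start sites, in Cdkn1a, holds a heat shock element, and only that of Rbl1 holds an E2F element. A match of letters is a description and does not show that a factor binds, and a window without a match says only that these letters are not in it.

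Among the Cip/Kip inhibitors, 0 of 5 probe sets passed limma, and 1 of 5 did at an unadjusted p under 0.05 and by the methods' t-test without adjustment. That 1 was a probe set of Cdkn1b, which encodes p27. On the brighter Cdkn1b probe set, 1434045_at, log2 intensities were 9.31, 9.28 and 9.01 in Hsf4-null lenses, against 10.21, 9.70 and 9.63 in wild-type lenses. Each Hsf4-null array lay below each wild-type array, with wild-type replicate 1 the highest. The means were 9.20 ± 0.16 (SD, n = 3) in Hsf4-null and 9.85 ± 0.32 (SD, n = 3) in wild-type lenses, a log2 fold change of -0.65 (standard error 0.17, 95% confidence interval -1.04 to -0.25). The difference did not pass over all probe sets (limma adjusted p = 0.116). It passed when the shared spread was modelled by intensity with outlying probe sets downweighted (limma adjusted p = 0.0411), which was the lowest adjusted p among the alternatives and 0.349 the highest, and also in the methods' t-test without adjustment. The other probe set, 1419497_at, had 8.68, 8.67 and 8.51 in Hsf4-null lenses, against 8.48, 8.40 and 8.58 in wild-type lenses. Its groups overlapped and its log2 fold change was 0.13 (95% confidence interval -0.10 to 0.37, limma adjusted p = 0.595).

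The brighter Cdkn1b probe set was thus lower without passing, and the other showed no detectable change. For Rbl1 the dimmer probe set was the lower one, and the brighter showed no detectable change. Within an array the dimmer minus the brighter Cdkn1b probe set was -0.64, -0.61 and -0.50 in Hsf4-null lenses, against -1.73, -1.30 and -1.06 in wild-type lenses. The gap differed by 0.78 log2 units (exact permutation test, two-sided p = 0.1, again the smallest possible), and from 0.60 to 0.93 under the alternatives. For Cdkn1a and Rbl2, the other members with 2 probe sets, the gap differed by -0.35 and 0.14 (exact permutation test, two-sided p = 0.4 and 0.5), with overlapping groups. Over these 4 comparisons the smallest p is 0.1 before adjustment, so none can pass.

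Cdkn1c encodes p57 and is imprinted, with expression from the maternal copy. Its probe set had log2 intensities of 10.21, 10.40 and 10.70 in Hsf4-null lenses, against 10.57, 10.76 and 10.71 in wild-type lenses. Hsf4-null replicate 3 reached the wild-type level and the other Hsf4-null arrays lay lower. The log2 fold change was -0.25 (standard error 0.14, 95% confidence interval -0.57 to 0.08, limma adjusted p = 0.456), so a decrease by more than 0.57 or an increase by more than 0.08 lies outside the interval. Cdkn1a, the p53 target that encodes p21, was dim on both probe sets. Its log2 fold changes were 0.19 (95% confidence interval -0.26 to 0.65) on 1424638_at and -0.15 (-0.47 to 0.16) on 1421679_a_at, with adjusted p of 0.696 and 0.646 from limma. Group means of Cdkn1a ran from 4.51 to 4.82, where a change could be hidden.

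None of the 4 INK4 probe sets passed limma, 1 did at an unadjusted p under 0.05 and 0 did by the methods' t-test. Cdkn2d, which encodes p19INK4d, was the steadiest member. Its log2 intensities were 6.88, 6.80 and 6.78 in Hsf4-null lenses, against 6.78, 6.80 and 6.73 in wild-type lenses. The log2 fold change was 0.05 with a 95% confidence interval of -0.16 to 0.26 (limma adjusted p = 0.829), the narrowest interval among the 14. Cdkn2c, which encodes p18, had 6.15, 5.89 and 6.04 in Hsf4-null lenses, against 6.15, 6.41 and 6.14 in wild-type lenses, a log2 fold change of -0.21 (95% confidence interval -0.49 to 0.07, limma adjusted p = 0.46). Its groups overlapped, with wild-type replicate 2 apart from the other wild-type arrays.

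Cdkn2a and Cdkn2b, neighbours on chromosome 4, were near the bottom of the scale and pointed opposite ways. Cdkn2a, which encodes p16 and, in another reading frame, p19ARF, had 3.58, 3.61 and 3.37 in Hsf4-null lenses, against 3.63, 3.82 and 4.05 in wild-type lenses. The groups did not overlap, but by only a few hundredths between the nearest arrays (log2 fold change -0.32, 95% confidence interval -0.63 to -0.01, limma adjusted p = 0.312). Cdkn2b, which encodes p15, had 3.89, 4.04 and 4.11 in Hsf4-null lenses, against 3.79, 3.57 and 3.89 in wild-type lenses. Here the Hsf4-null arrays lay above the wild-type arrays, again by a narrow margin (log2 fold change 0.27, 95% confidence interval -0.01 to 0.54, limma adjusted p = 0.344). At mean levels of 3.52 to 4.01, these values do not show that either transcript was present in the lens. Which of the products of Cdkn2a its probe set detects was not tested.

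Besides Rbl1, the pocket proteins were Rb1 and Rbl2. Rb1, which encodes the retinoblastoma protein, had log2 intensities of 9.30, 9.39 and 9.52 in Hsf4-null lenses, against 9.42, 9.40 and 9.52 in wild-type lenses. The groups overlapped, with Hsf4-null replicate 1 the lowest array, and the log2 fold change was -0.04 (standard error 0.10, 95% confidence interval -0.28 to 0.19, limma adjusted p = 0.884). Rbl2 encodes p130, the pocket protein best known from resting and differentiated cells. Its brighter probe set, 1425981_a_at, had 5.71, 5.64 and 5.39 in Hsf4-null lenses, against 6.18, 5.94 and 5.86 in wild-type lenses. All Hsf4-null arrays lay below the wild-type arrays, and the log2 fold change was -0.41 (standard error 0.13, 95% confidence interval -0.72 to -0.11, limma adjusted p = 0.189), and it passed only in the methods' t-test without adjustment. The dimmer probe set, 1418146_a_at, had 4.13, 4.20 and 3.96 in Hsf4-null lenses, against 4.21, 4.48 and 4.41 in wild-type lenses. It too was lower on every Hsf4-null array, with 1 wild-type array at almost the same value (log2 fold change -0.27, 95% confidence interval -0.54 to 0.00, limma adjusted p = 0.331). The Rbl2 probe sets therefore pointed the same way, without passing over all probe sets. Rbl2 lies on chromosome 8, as Hsf4 does, with 102 protein-coding genes between them in the gene order of GRCm38.p6.

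**Figure D3:**
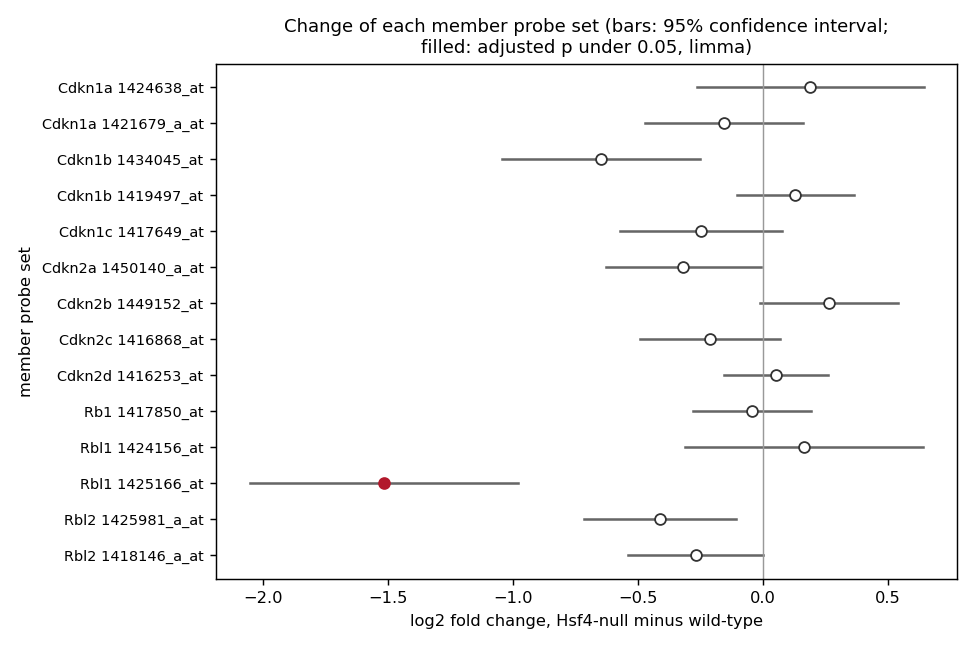
Log2 fold change, Hsf4-null minus wild-type (horizontal axis), of each member probe set, with limma estimates from 3 arrays per group and 95% confidence intervals. The filled point is Rbl1 1425166_at at -1.52, the 1 probe set with an adjusted p under 0.05, and the intervals of Cdkn1b 1434045_at, Cdkn2a and Rbl2 1425981_a_at also leave out 0 before adjustment.

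With each gene represented by its brightest probe set, 0 of the 10 members passed limma, 3 did at an unadjusted p under 0.05, and 2 passed the methods' t-test without adjustment. Over 12393 genes limma called 2.88% (2.11% lower and 0.775% higher), 15.7% had an unadjusted p under 0.05 and 13.4% passed the methods' t-test without adjustment. The genes around the members were read in the same way. A list of 10 genes held mainly G1 cyclins and CDKs, the targets of the inhibitors. Among the 10 were also Ccna2, which is not a G1 cyclin, and Cdc25a, which is neither a cyclin nor a CDK. Of the 10, 0 passed limma, 1 did at an unadjusted p under 0.05 and 1 by the methods' t-test without adjustment. It was Cdk2, the partner of cyclins E and A. Cdk2 had log2 intensities of 6.84, 6.67 and 7.08 in Hsf4-null lenses, against 6.58, 5.86 and 5.87 in wild-type lenses. The Hsf4-null arrays all lay higher, with wild-type replicate 1 close to them (log2 fold change 0.76, standard error 0.21, limma adjusted p = 0.131). Without that array the change was 0.99 and passed (limma adjusted p = 0.0219), and over all its alternatives the adjusted p ran from 0.0219 to 0.378. The list had a median of 0.23, beside 0.01 over all genes.

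Of 10 E2F and DP factors, 7 had a probe set, and 0 passed limma, with 1 at an unadjusted p under 0.05 and 0 by the methods' t-test. That 1 was E2f5, a partner of p130, and the log2 fold change was 0.55 (standard error 0.17, limma adjusted p = 0.17), and the list's median was 0.15. E2f4, another pocket protein partner, lies on chromosome 8 with 3 protein-coding genes between it and Hsf4. Its probe set was dim, at means of 4.32 ± 0.05 in Hsf4-null and 4.39 ± 0.04 in wild-type lenses (SD, n = 3 each), with a log2 fold change of -0.06 (limma adjusted p = 0.79). Among 7 measured of 11 partners that sit with pocket proteins on chromatin, 0 passed limma, 1 did at an unadjusted p under 0.05 and 0 did by the methods' t-test. Lin37, a subunit of the complex that represses cell cycle genes together with p107 or p130, was that 1, at 0.33 (limma adjusted p = 0.279).

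The machinery that degrades the Cip/Kip inhibitors held 1 called gene. Of 11 measured of 12 such genes, Cul1 fell, 0 rose and 10 did not pass, where limma called 2.88% of all genes. Cul1 is the scaffold of the SCF ubiquitin ligase, which together with Skp2 and Cks1b marks p27 for destruction. Its log2 intensities were 9.57, 9.56 and 9.48 in Hsf4-null lenses, against 10.37, 10.51 and 10.68 in wild-type lenses. The groups lay far apart relative to their spread (log2 fold change -0.98, standard error 0.11, limma adjusted p = 0.00326). The call held whichever array was left out, and it was lost only in the methods' t-test after adjustment (adjusted p = 0.0728), with 0.000166 the lowest over the alternatives. Skp2 and Cks1b, by their brightest probe sets, had log2 fold changes of -0.28 and 0.15 and did not pass. The other Skp2 probe sets pointed both ways, with log2 fold changes from -0.21 to 0.23, and did not pass either.

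Of 24 measured of 25 regulators upstream of CDK inhibitors, 1 rose, 1 fell and 22 did not pass. An unadjusted p under 0.05 from limma was reached by 7, and the groups did not overlap for 8. Over all 12393 genes, 357 (2.88%) passed limma after adjustment, 1948 (15.7%) reached that unadjusted p and 2684 had groups that did not overlap. Whether the list differs from all genes in these counts was not tested. Prox1, a homeodomain factor that mouse lenses need for normal Cdkn1b and Cdkn1c expression, was the 1 that fell. It had 8.41, 8.73 and 8.40 in Hsf4-null lenses, against 9.32, 9.22 and 9.50 in wild-type lenses (log2 fold change -0.83, limma adjusted p = 0.0161). Its groups did not overlap, but the call was lost without Hsf4-null replicate 1 (adjusted p = 0.0622), Hsf4-null replicate 3 (0.0765) or wild-type replicate 3 (0.0599), within a range of 0.00282 to 0.15 over its alternatives. Egr1, an immediate early factor, was the 1 that rose, at 9.94, 10.35 and 9.85 in Hsf4-null lenses, against 8.41, 7.66 and 7.70 in wild-type lenses (log2 fold change 2.13, limma adjusted p = 0.00266). The median of the list was 0.01, as over all genes.

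Among the listed genes downstream of the pocket proteins, no change passed. Standard errors reached 0.30 in the S phase list and 0.36 in the G2 and M phase list, so moderate changes could be missed. Of 18 measured of 20 E2F target genes of S phase, 0 passed limma, 0 passed at an unadjusted p under 0.05 and 0 by the methods' t-test, with a median of 0.09 and log2 fold changes from -0.15 to 0.47. The lowest p was that of Cdt1, a licensing factor of DNA replication, at 0.47 (limma adjusted p = 0.489), and this value moved to 0.13 without wild-type replicate 3 and to 0.75 without wild-type replicate 2. Of 14 measured of 15 genes of G2 and M phase, the counts were again 0, 0 and 0. There 12 of the 14 log2 fold changes were above 0, from -0.33 to 0.49 with a median of 0.27, and the groups overlapped for all 14. Aurkb, a mitotic kinase, had the lowest p of that list, at 0.29 (limma adjusted p = 0.383). These genes vary together between arrays, so the count of 12 is not a count of independent changes.

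**Figure D4:**
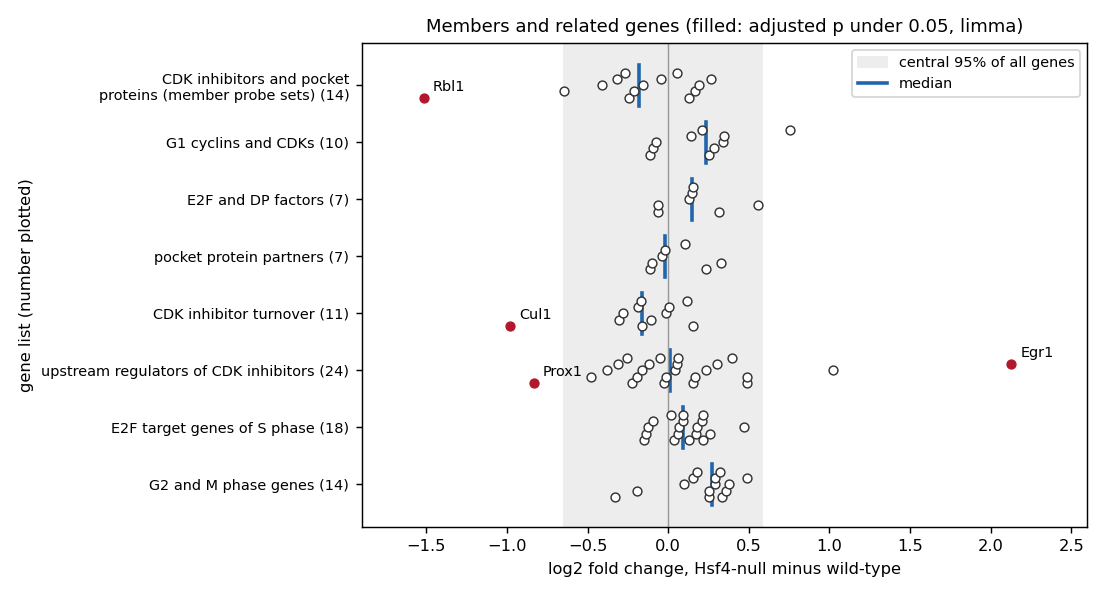
Log2 fold change, Hsf4-null minus wild-type (horizontal axis), of the 14 member probe sets and of the brightest probe set of each gene in 7 related lists, with the median of each list as a line and the central 95% of all genes (-0.64 to 0.58) shaded. Filled points passed limma at an adjusted p under 0.05 and are Rbl1 at -1.52, Cul1 at -0.98, Prox1 at -0.83 and Egr1 at 2.13.

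The genes whose log2 values followed Rbl1 1425166_at most closely over the 6 arrays, among 6889 genes above the median, were Gpsm2 (Pearson r = 0.993), Dab1 (0.991) and Rpa3 (0.989). Gpsm2, a regulator of spindle orientation, had 6.56, 5.74 and 6.30 in Hsf4-null lenses, against 7.41, 7.46 and 7.57 in wild-type lenses, with Hsf4-null replicate 2 the lowest as on Rbl1. Rpa3, a subunit of the replication protein A complex, had a log2 fold change of -0.74 (limma adjusted p = 0.0298). These values describe 6 arrays that share the difference between the groups, and many genes can reach a high correlation in so few.

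Markers of tissue around the lens ran unevenly between arrays. The 6 measured pigment cell markers had a median log2 fold change of 0.96, with summed intensities of 852 to 1878 in Hsf4-null and 319 to 1043 in wild-type lenses, and 0 passed limma. For 10 macrophage markers the median was 0.40, with sums of 592 to 991 in Hsf4-null and 329 to 731 in wild-type lenses, and for 8 mesenchyme markers it was 0.20, with sums of 1794 to 2361 in Hsf4-null and 1611 to 1821 in wild-type lenses. Of these, only the mesenchyme markers Col1a1 and Twist1 passed limma, both higher. The 8 vascular markers had a median of 0.23, with sums of 1832 to 1980 in Hsf4-null and 1342 to 1811 in wild-type lenses, which did not overlap. The 8 retina markers had a median of 0.36, with sums of 239 to 1598 in Hsf4-null and 272 to 1207 in wild-type lenses, and the 3 blood markers 0.61, with sums of 91.4 to 108 in Hsf4-null and 61.5 to 76.0 in wild-type lenses, and 0 passed in each of these lists. Among the pigment cell markers, Tyrp1, Dct, Pmel and Tyr had log2 fold changes of 1.30, 1.30, 1.27 and 0.64, and Slc45a2 had -0.10. Rpe65, a marker of retinal pigment epithelium, lay near the bottom of the scale at means of 3.42 in Hsf4-null and 3.43 in wild-type lenses. At that level it says little of either group, and which pigment cells were present was not tested. The 8 lens epithelium markers, which stand for the dividing cells, had a median of -0.17 with 0 passing, and summed to 24681 to 25240 in Hsf4-null and 26025 to 26211 in wild-type lenses. Of 8 fiber markers Bfsp1 and Dnase2b fell, and the list summed to 69232 to 75218 in Hsf4-null and 80821 to 83962 in wild-type lenses. The epithelium and fiber sums did not overlap between the groups, but each did once 1 bright gene was left out. This was checked after the values had been seen. The vascular and blood sums also did not overlap and were not checked in this way. Without Cryab, which fiber cells also express, the epithelium sums overlapped, at 10860 to 11863 in Hsf4-null and 10584 to 11495 in wild-type lenses, and without Bfsp1 the fiber sums did, at 66138 to 71702 in Hsf4-null and 70317 to 74019 in wild-type lenses. Such sums follow their brightest genes, so the check says little of the dimmer ones. The dimmer epithelium markers Pitx3 and Foxe3 had log2 fold changes of -0.48 and -0.38 (limma adjusted p = 0.172 and 0.0808). For both, all Hsf4-null arrays lay below all wild-type arrays. In that list 6 log2 fold changes were below 0 and 2 above. The part of any of these tissues in the values of the members was not tested.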

How the data were processed

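Newborn mouse lenses were measured on 6 Affymetrix mouse expression arrays, 3 Hsf4-null and 3 wild-type, grouped by their titles. The deposited file holds the RMA values of the authors as linear intensity, and the version of the RMA software is not stated. From these, log2 was taken and, after 64 of 22690 rows that are array controls were left out, 22626 probe sets were fitted in limma 3.58.1 under R 4.3.3 (eBayes on the difference of group means, unblocked and unfiltered), with Benjamini-Hochberg adjustment over all of them. The procedure was first tested on simulated data.

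Of the probe sets, 20380 carry 1 symbol in the platform annotation, 691 several and 1555 none. For 20351 of those with 1 symbol the Entrez ID was found in RefSeq GRCm38.p6, and the symbol given there was used, whether changed or not. The brightest probe set stood for a gene in lists. Named are all member probe sets, the called genes of each related list or else the gene with its lowest p, and the 3 genes most like a called member. The members and lists were chosen with earlier results of these data known. The alternatives were other tests and variance models, the replicate block, 2 normalizations, a filter on dim probe sets and leaving out each array; a probe set that passed in neither setting counted as the same call, whatever its sign. SAM, the other test in the methods, was not run. Precision is limited by how few arrays there are, and an exact permutation test of 3 arrays against 3 cannot go below 0.1.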

Additional observations from a re-analysis of the deposited data

How the results depend on the processing

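The 1 called member probe set, Rbl1 1425166_at, kept its direction under every alternative. The count of called member probe sets was 3 by the methods' t-test without adjustment, 0 by that test after Benjamini-Hochberg adjustment, 2 with a trended and robust variance, and 0 to 1 when an array was left out. For brightest probe sets, the count of 0 became 2 and 1 by the t-test without adjustment and with the trended variance. Of 201 repeats over single member probe sets, 194 gave the same outcome, 3 gained a call and 4 lost one. Most of the 194 were uncalled probe sets that stayed uncalled. The 1 called probe set, Rbl1 1425166_at, lost its call in 4 of its 14 alternatives. Over all probe sets the 602 calls became 2912 and 85 by the t-test without and with adjustment, 366 with 1 probe set per gene, and 321 to 562 when an array was left out: 321 without Hsf4-null replicate 3, 335 without wild-type replicate 2 and 358 without wild-type replicate 3. With the replicate number as a block, 382 probe sets passed, and the count for upstream regulators was 1 in place of 2, with Prox1 lost; among the members and related lists the block changed no other call, and it was not run for single marker genes or for Gpsm2, Dab1 and Rpa3. Deviations of arrays with the same number correlated at 0.25, -0.21 and -0.08, and 1 of 3 Hsf4-null arrays correlated best with its own number, so the numbers were not taken to pair the arrays. By the t-test without adjustment, G1 cyclins and CDKs had 1 call (Cdk2) and upstream regulators 5; with adjustment, upstream regulators and CDK inhibitor turnover had 0. Leaving out an array gave 0 to 1 for G1 cyclins and CDKs and 1 to 2 for upstream regulators. The filter on dim probe sets left 9 of the 14 member probe sets. The causes were not tested. Dim probe sets, which include both of Cdkn1a, Cdkn2a and Cdkn2b, limit what can be said of those genes.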
